A study of Homo sapiens with 4 samples.

Results

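The 10 genes described here encode transcription factors of the B lymphocyte: the B-cell factors PAX5, EBF1, TCF3, POU2F2, POU2AF1 and SPIB, the germinal centre factors BCL6 and BACH2, and the plasma cell factors PRDM1 and XBP1. They were chosen by name, and every probe whose gene symbol in the array's annotation was a listed name was taken. This gave 16 probes of the 47230 probes with a value on every array. EBF1, PAX5, POU2AF1, POU2F2, SPIB, TCF3 and BCL6 had 1 probe each, XBP1 had 2, BACH2 had 3 and PRDM1 had 4.

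The samples were L591 cells, which the labels give as a Hodgkin lymphoma line. The PDLIM2 group received 40 µg of the plasmid pcDNA3 carrying transcript variant 2 of PDLIM2, which encodes a putative ubiquitin ligase, and the mock group received the same amount of pcDNA3 without it. Both groups also received 10 µg of the GFP plasmid pEGFP-N3 and were sorted for GFP, so the controls share the transfection, the GFP and the sort. There were 2 Illumina bead arrays per group, with the numbers 1 and 2 in the sample titles, and the study asks which transcripts differ in L591 cells given PDLIM2.

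A B cell is set up in a cascade of these factors. TCF3 and EBF1 open the B-lineage programme and PAX5, which they help to switch on, maintains it and represses genes of other lineages. POU2F2 and its coactivator POU2AF1 act at the octamer element of immunoglobulin promoters, and SPIB, an ETS factor, binds purine-rich sites in B-cell receptor genes. In the germinal centre, BCL6 and BACH2 hold back the plasma cell programme. PRDM1, which represses PAX5 and BCL6, and XBP1, which builds the secretory apparatus, carry that programme out. The malignant cells of classical Hodgkin lymphoma derive from germinal centre B cells and are known for having lost much of this programme.

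All values are deposited log2 values, which shared their quartiles on the 4 arrays (75th percentile 7.553). The PDLIM2 array 2 differed most from the others. Over the 23615 tested probes, its differences to the other arrays had an SD of 0.394 (PDLIM2 array 1), 0.421 (mock array 1) and 0.343 (mock array 2). The SD was 0.219 for PDLIM2 array 1 minus mock array 1, and 0.298 between the mock arrays. It was 0.317 for PDLIM2 array 1 minus mock array 2, only slightly below the 0.343. Whether 1 array or the array number lies behind these spreads was not tested. Separate cultures are not stated for the arrays of a group, so the p-values given here cover array-to-array spread that may be technical. PDLIM2 itself had dim probes with opposite differences. One (ILMN_1669667) read 5.76 and 5.52 on the PDLIM2 arrays 1 and 2, against 5.50 and 5.15 on the mock arrays 1 and 2. The other (ILMN_1770248) read 5.24 and 5.27 on the PDLIM2 arrays, against 5.48 and 5.62 on the mock arrays. The place of either probe relative to the transfected cDNA is unknown here, so they give no check of the labels.

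The values come without a detection call, so the first question, which of the factors were retained in L591 cells, was put against a fixed list of 63 genes restricted to other tissues, such as liver, muscle, retina and testis. The list had 81 probes for 58 genes. Their 95th percentile was 8.81 on the mock array 1 and 8.90 on the mock array 2, and their median was 5.80 and 5.77. A probe above the 95th percentile on both mock arrays is called clearly above background below, which 15.7% of all probes were. The limit was the reading of a SERPINA1 probe on the mock array 1 and of an MBP probe on the mock array 2, both genes of the list. It is strict, and a probe below it may still lie above background. Brightness depends on the probe as well as on the transcript, so a dim probe gives no proof that the gene is silent, and levels of different genes are not ranked.

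Of the 16 probes, 7 were clearly above background in the mock arrays, and they belong to 6 of the 10 genes: EBF1, SPIB, TCF3, BCL6, PRDM1 and XBP1. Each of these 7 probes was also above the limit on both PDLIM2 arrays. For PRDM1 this was 1 of its 4 probes, and its other probes lay below the limit on every array. PAX5, POU2AF1 and BACH2 had no probe above it on any array, and their probes lay near the median of the tissue-restricted probes. POU2F2 lay between, with 7.26 and 7.90 on the PDLIM2 arrays and 7.31 and 7.24 on the mock arrays. Without MBP, KRT10 and SERPINA1, the genes with the brightest probes of the tissue-restricted list, the limit fell to 6.55 and 6.26 on the mock arrays 1 and 2 and 10 probes of 7 genes passed, POU2F2 being the added gene, as did 33.8% of all probes. That choice was made after seeing the data. No probe of PAX5, POU2AF1 or BACH2 passed the lower limit on both mock arrays either.

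**Figure D1:**
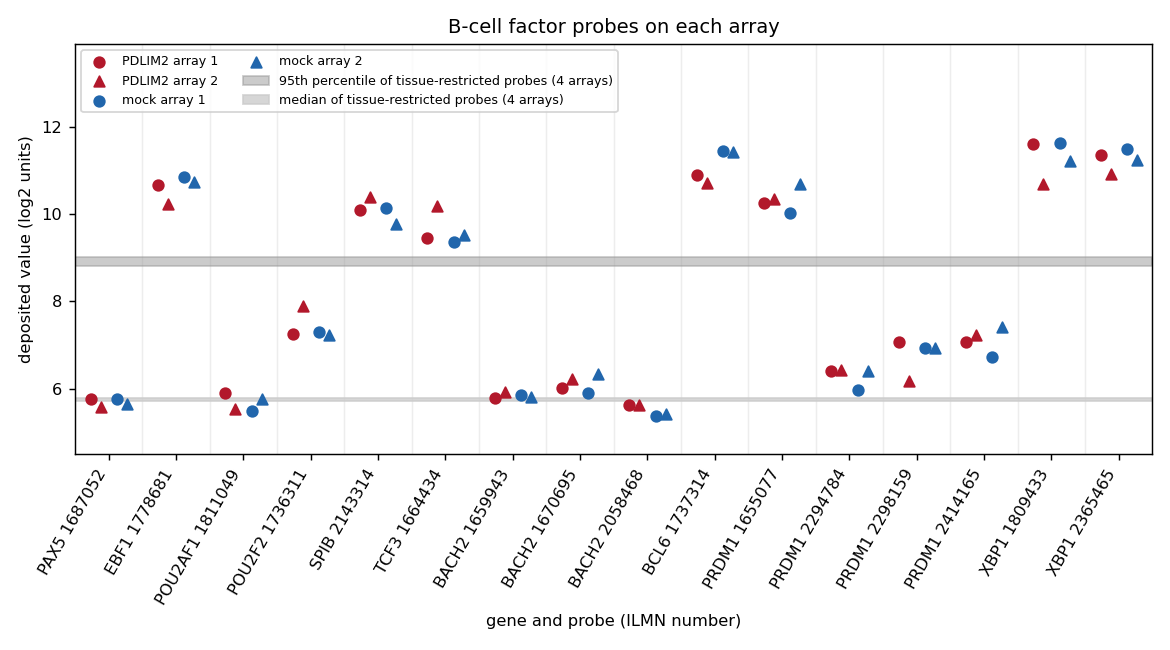
Deposited log2 value of each of the 16 probes on the PDLIM2 arrays (red) and the mock arrays (blue), circles for number 1 and triangles for number 2; grey bands give the range over arrays of the median and the 95th percentile of the tissue-restricted probes. The probes of EBF1, SPIB, TCF3, BCL6 and XBP1 and 1 of the 4 PRDM1 probes, 7 in all, lie above the upper band on all 4 arrays. The other PRDM1 probes lie below the upper band, and those of PAX5, POU2AF1 and BACH2 lie near the lower band.

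The cell type behind these values matched the label in part. Among B-cell markers, CD79A and CD79B, the signalling chains of the B-cell receptor, were clearly above background in the mock arrays (11.57 on both for CD79A, 9.11 and 9.22 for CD79B), and MS4A1, which encodes CD20, and BLK, a B-cell kinase, were not (6.24 and 6.02 for MS4A1). Of the 5 Hodgkin markers, 3 passed (FSCN1, TRAF1 and FUT4), and the probes of TNFRSF8, which encodes CD30, and CCL17 did not. Markers of T and NK cells passed in 1 of 17 genes (CD2, at 11.59 and 12.17 in the mock arrays) and myeloid markers in 1 of 15 (CEBPB). The CD3 genes CD3D, CD3E and CD3G read between 5.55 and 6.01 on all 4 arrays, near the median of the tissue-restricted probes. These calls depend on the limit. At the lower limit given above (6.55 and 6.26 on the mock arrays 1 and 2), TNFRSF8 (6.86 and 6.61) and the B-cell marker CD22 passed too. So did GZMB, NKG7, CD14, CSF1R and CD68, whereas CCL17, MS4A1, BLK and the remaining T and NK and myeloid genes did not.

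**Figure D2:**
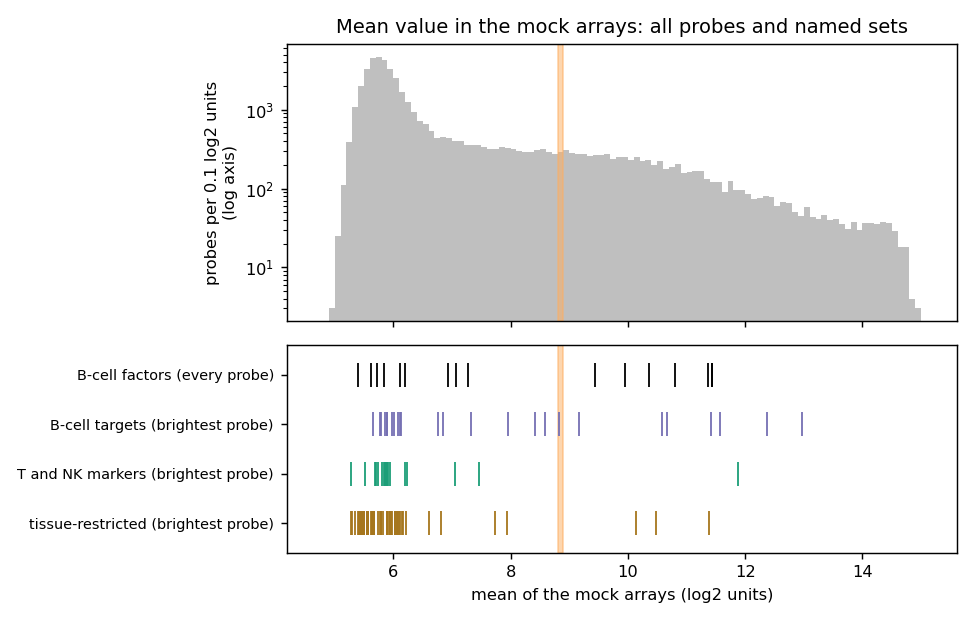
Mean value in the mock arrays of all probes (histogram, log axis for the number of probes) and of the named sets (ticks, one per probe or per brightest probe of a gene); the orange band spans the 95th percentile of the tissue-restricted probes on the 2 mock arrays. The B-cell factor probes fall into bright ones from 9.44 upward and dim ones up to 7.28, and all T and NK markers other than CD2 lie below the band.

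The second question was which factors differed between PDLIM2 and mock arrays. Of the 16 probes, 12 probes of 8 genes had a mean above the median of all probes (5.99) and entered the limma test, and the PAX5, POU2AF1 and the other 2 BACH2 probes are given from the same fit on all 47230 probes. No B-cell factor was called higher or lower at an adjusted p under 0.05, and neither was any other tested probe (0% of 23615), with adjusted p = 0.9998 in limma for every one of the 16 probes. Of the 12 tested probes 6 read higher and 6 read lower, where 52.8% of all tested probes read higher, with a median difference of -0.027 log2 units, beside 0.012 over all tested probes. The unadjusted p was under 0.05 for 1 of the 12, BCL6, and for 2.82% of all tested probes. The groups did not overlap for 2 of the 12, BCL6 and EBF1, both lower, and for 28.6% of all tested probes, so neither count is read as a result about these genes. With 2 arrays against 2, an exact permutation test of a single probe cannot give a two-sided p below 0.333. The cells were measured in bulk, so a lower level in every cell and a loss of the transcript from some of the cells cannot be told apart.

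BCL6 had the lowest difference of the 10 genes. BCL6, the repressor that defines the germinal centre B cell, read 10.91 and 10.72 log2 units on the PDLIM2 arrays 1 and 2, against 11.44 and 11.43 on the mock arrays 1 and 2. The mock arrays nearly coincided, and both PDLIM2 arrays lay below them. The difference was -0.62 log2 units (SE 0.17, 95% interval -1.03 to -0.22), or 0.649 times the mock level, with an unadjusted p of 0.00813 in limma that did not pass adjustment. It was -0.53 in the arrays with number 1 and -0.71 in those with number 2, and -0.53 without the PDLIM2 array 2, the one that differed most from the others. BCL6 was the only one of the 12 tested probes with a difference of at least 1.5-fold, which 2.09% of all tested probes had.

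Among the tested probes, that of EBF1 was the other whose groups did not overlap. EBF1, a pioneer factor that opens B-lineage chromatin, read 10.67 and 10.23 on the PDLIM2 arrays, against 10.86 and 10.73 on the mock arrays. Both PDLIM2 arrays were lower, array 2 more so, and the gap between the groups was small. The difference was -0.35 (SE 0.20, 95% interval -0.83 to 0.13), with -0.19 in number 1 and -0.51 in number 2, and -0.13 or -0.57 with PDLIM2 array 2 or 1 left out.

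TCF3, the gene of the E proteins E12 and E47, read 9.46 and 10.18 on the PDLIM2 arrays, against 9.36 and 9.51 on the mock arrays. The PDLIM2 array 2 was the highest, and the PDLIM2 array 1 fell between the mock arrays. The difference was 0.39 (SE 0.25, 95% interval -0.21 to 0.98), and it was 0.028 without the PDLIM2 array 2. PAX5, the keeper of B-cell identity, read 5.77 and 5.59 on the PDLIM2 arrays and 5.77 and 5.66 on the mock arrays, at percentiles 31.9 and 21.1 of all probes on the mock arrays 1 and 2. Its groups overlapped, with a difference of -0.036 (95% interval -0.39 to 0.32). The probe lay below the 95th percentile of the tissue-restricted probes on every array.

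Among the octamer and ETS factors, SPIB read 10.10 and 10.40 on the PDLIM2 arrays, against 10.13 and 9.77 on the mock arrays. The groups overlapped, and the difference of 0.30 (SE 0.21, 95% interval -0.19 to 0.79) came from number 2, with 0.63 there and -0.035 in number 1. POU2F2, or OCT2, followed the same pattern: 0.66 in number 2, -0.055 in number 1 and 0.30 over both (SE 0.24). Its PDLIM2 array 2 was the high one, and the other 3 arrays read between 7.24 and 7.31. POU2AF1, the coactivator that works with OCT2, read 5.91 and 5.54 on the PDLIM2 arrays and 5.50 and 5.76 on the mock arrays, dim and overlapping, with a difference of 0.099 (SE 0.18).

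BACH2, which delays plasma cell differentiation, was dim at all 3 probes. ILMN_1670695 read 6.01 and 6.23 on the PDLIM2 arrays and 5.90 and 6.33 on the mock arrays, with a difference of 0.0066 (SE 0.21). ILMN_1659943 had a difference of 0.030. For ILMN_2058468 the groups did not overlap, as for 28.4% of all 47230 probes, at 5.62 and 5.63 on the PDLIM2 arrays and 5.38 and 5.41 on the mock arrays. This probe lay at percentiles 4.14 and 5.11 of all probes on the mock arrays, and its difference of 0.23 (SE 0.14) was not matched by the brighter BACH2 probes.

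PRDM1 encodes BLIMP1, the repressor that ends the B-cell programme. Its bright probe (ILMN_1655077) read 10.25 and 10.36 on the PDLIM2 arrays and 10.03 and 10.69 on the mock arrays. The mock arrays enclosed both PDLIM2 arrays, and the difference was -0.061 (SE 0.24, 95% interval -0.63 to 0.51). The dimmer probes disagreed in sign, with differences of 0.22, -0.31 and 0.074. The lowest of these, ILMN_2298159, rested on the PDLIM2 array 2, which read 6.17 where the PDLIM2 array 1 read 7.08 and the mock arrays read 6.95 and 6.92.

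XBP1, the factor that plasma cells need for secretion, had 2 bright probes with the same sign. ILMN_1809433 read 11.60 and 10.70 on the PDLIM2 arrays, against 11.63 and 11.23 on the mock arrays. ILMN_2365465 read 11.35 and 10.92 on the PDLIM2 arrays, against 11.49 and 11.24 on the mock arrays. At both probes array 2 was lower than array 1 in either group, and the groups overlapped. The differences were -0.28 (SE 0.31) and -0.23 (SE 0.21), and without the PDLIM2 array 2 they were 0.17 and -0.014. The probes are annotated to the transcripts NM_005080 and NM_001079539, and spliced and unspliced XBP1 were not told apart here.

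**Figure D3:**
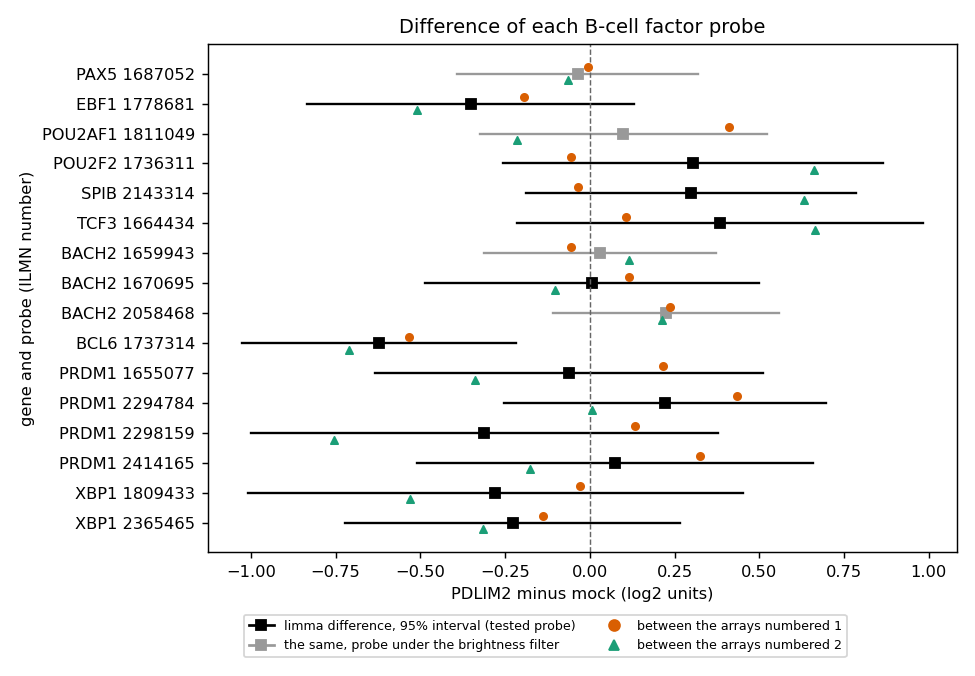
PDLIM2 minus mock of each of the 16 probes in log2 units: squares with 95% intervals from limma (black for tested probes, grey for probes under the brightness filter), circles for number 1 and triangles for number 2. The interval of BCL6 alone does not reach 0, and for TCF3, POU2F2 and SPIB the arrays numbered 1 differ by at most 0.11 while those numbered 2 differ by 0.63 to 0.66.

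At most of these probes PDLIM2 minus mock was larger between the arrays numbered 2 than between those numbered 1. In the labels, same-numbered arrays share only their number. The tested probes come from 8 genes, with 4 from PRDM1 and 2 from XBP1, so they are not separate factors. Over the 12 tested probes, the median size of PDLIM2 minus mock was 0.136 log2 units in number 1 and 0.520 in number 2, and it was larger in number 2 for 9 of 12. Over all tested probes the medians were 0.137 and 0.181, and the difference was larger in number 2 for 59.5%. The sign was the same in both numbers for 6 of the 12 probes, namely those of EBF1, TCF3, BCL6 and XBP1 and the PRDM1 probe ILMN_2294784, and opposite for the other 6, against 45.3% opposite signs over all tested probes. Without the PDLIM2 array 1, the unadjusted p was under 0.05 for 6 of the 12 probes and for 11.6% of all tested probes, and 163 and 647 probes of all tested were called higher and lower. That fit rests on the PDLIM2 array 2 alone, which is assumed to vary like the mock arrays.

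Genes around these factors were read from fixed lists, each gene by its brightest probe, and none of their tested genes was called. Of the 22 tested genes among other B-lineage factors, 7 read higher and 15 lower, with a median difference of -0.076, beside 0.012 over all tested probes. FOXO1, a factor of early B cells and of the germinal centre dark zone, had the smallest p of that list, with 8.88 and 9.18 on the PDLIM2 arrays, against 9.58 and 9.70 on the mock arrays (difference -0.61, SE 0.19). BCL11A, a lymphoid zinc finger factor, read 10.82 and 10.61 on the PDLIM2 arrays, against 10.37 and 10.38 on the mock arrays (difference 0.34, SE 0.17), and its dimmer tested probes reached down to 0.011. BACH1, the relative of BACH2, had a difference of 0.33 (SE 0.17).

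Of 16 tested genes that BCL6 is known to repress, 5 read higher and 11 lower, with a median of -0.092 log2 units. The groups did not overlap for 7 of the 16, beside 28.6% of all tested probes. In other lists they did not overlap for 9 of 22 (other B-lineage factors), 7 of 18 (B-cell surface genes), 6 of 17 (XBP1 target genes) and 3 of 14 (plasma cell genes). The shares ran from 0 of 5 (T and NK markers) and 0 of 3 (E protein inhibitors) to 4 of 7 (NOTCH and T-lineage factors). These counts were not tested. CDKN1B, which encodes the cell cycle inhibitor p27, read 8.86 and 9.03 on the PDLIM2 arrays, against 9.58 and 9.79 on the mock arrays (difference -0.74, SE 0.18), and its dimmer probe had -0.53. The adhesion receptor gene CD44 had a difference of -0.44 (SE 0.17; -0.54 to -0.17 over its 3 tested probes) and the survival gene BCL2 of -0.53 (SE 0.21; up to -0.34 over its 3), and neither overlapped between the groups. CDKN1B, CD44 and BCL2 had an unadjusted p under 0.05 in limma, beside 2.82% of all tested probes, and did not pass adjustment. The same held for FOXO1, DNAJB9 and RBPJ, which are given with their own lists. All of these genes were picked for their small p, so nothing is read from their count.

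B-cell surface and signalling genes, many of them targets of PAX5 and EBF1, had a median of 0.073 over 18 tested genes, 12 higher and 6 lower. Of the 25 genes of this list with a probe, 7 were clearly above background in the mock arrays. PTPRC, the CD45 gene, had a difference of -0.68 (SE 0.38) that lay mostly in number 2 (-1.19, against -0.17 in number 1). CIITA, the class II transactivator that BLIMP1 represses, had 0.39 (SE 0.22), with groups that did not overlap, and the inhibitory receptor gene CD22 had 0.38 (SE 0.28). Germinal centre genes had a median of -0.050 over 10 tested genes, 5 higher and 5 lower, with GNA13, a G protein subunit that confines germinal centre cells, at -0.36 (its dimmer probe had 0.00049), the histone methyltransferase gene EZH2 at -0.30 (-0.74 to -0.21 over its 3 tested probes) and the elongation factor gene ELL3 at -0.25.

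Plasma cell genes had a median of 0.039 over 14 tested genes, 9 higher and 5 lower, with CAV1 at -0.30 (its dimmer probe had -0.084), the secretory folding factor gene FKBP11 at 0.26 and the translocon-associated gene SSR4 at 0.19. The plasma cell marker SDC1 (CD138) read 6.77 and 6.93 on the PDLIM2 arrays and 6.64 and 6.76 on the mock arrays, below the limit of 8.81 on the mock array 1. It passed the lower limit of 6.55 and 6.26 on the mock arrays 1 and 2. The plasma cell markers TNFRSF17, MZB1 and JCHAIN also lay between the lower and the strict limit on both mock arrays. XBP1 target genes split, with 11 of 17 tested genes higher and a median of 0.057. DNAJB9, a chaperone of the endoplasmic reticulum, read 9.52 and 8.51 on the PDLIM2 arrays, against 9.81 and 9.78 on the mock arrays (difference -0.78, SE 0.31), low chiefly on the PDLIM2 array 2. The disulfide isomerase genes PDIA6 and PDIA4 differed in opposite directions, at -0.37 and 0.33.

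Inhibitors of the E proteins and factors of other lineages were also read. ID2, which keeps TCF3 from binding DNA, read 13.94 and 13.15 on the PDLIM2 arrays and 13.80 and 13.49 on the mock arrays, and MSC, known as ABF1, read 10.60 and 10.27 on the PDLIM2 arrays and 10.72 and 10.43 on the mock arrays. Both were clearly above background in the mock arrays, with differences of -0.10 and -0.14, and ID1 had -0.067; these were the 3 tested genes of 5, and all read lower with overlapping groups. Their median of -0.10 turned direction with an array left out, at 0.077 (PDLIM2 array 2 left out) and 0.055 (mock array 1 left out), and was -0.31 with PDLIM2 array 1 left out. Of the 7 tested NOTCH and T-lineage factors 4 read higher and 3 lower (median 0.056), with RBPJ, the DNA-binding partner of NOTCH, at -0.83 (SE 0.34; up to -0.20 over its 3 tested probes), its coactivator gene MAML1 at -0.38 and the T-lineage factor gene TBX21 at 0.28. RBPJ was low chiefly on the PDLIM2 array 2, with -0.37 in number 1 and -1.30 in number 2. The 5 tested markers of T and NK cells all read lower with overlapping groups (median -0.078), namely CD2, CD28 at -0.078, GZMB at -0.15, NKG7 at -0.083 and ZAP70. Of these, CD2 alone was clearly above background in the mock arrays, and 52.8% of all tested probes read higher. Of the 6 tested myeloid markers 4 read higher (median 0.11), with CD68 at -0.46 (its other tested probes reached 0.10), ITGAM at 0.22 and CEBPB at 0.21, and of the 5 Hodgkin markers 3 read higher (median 0.014), with TRAF1 at 0.28, FSCN1 at 0.19 and FUT4 at -0.087 (its dimmer probe had 0.18). The Hodgkin median was -0.12 and 0.14 with PDLIM2 array 1 or 2 left out, and 0.35 and -0.11 with mock array 1 or 2 left out. Of the 11 list medians, 8 changed sign when an array was left out, the exceptions being B-cell surface genes, NOTCH and T-lineage factors, and T and NK markers. Among the exceptions, the B-cell surface median fell to 0.0018 with PDLIM2 array 2 left out. The T and NK median came to -0.0024 with PDLIM2 array 1 left out.

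**Figure D4:**
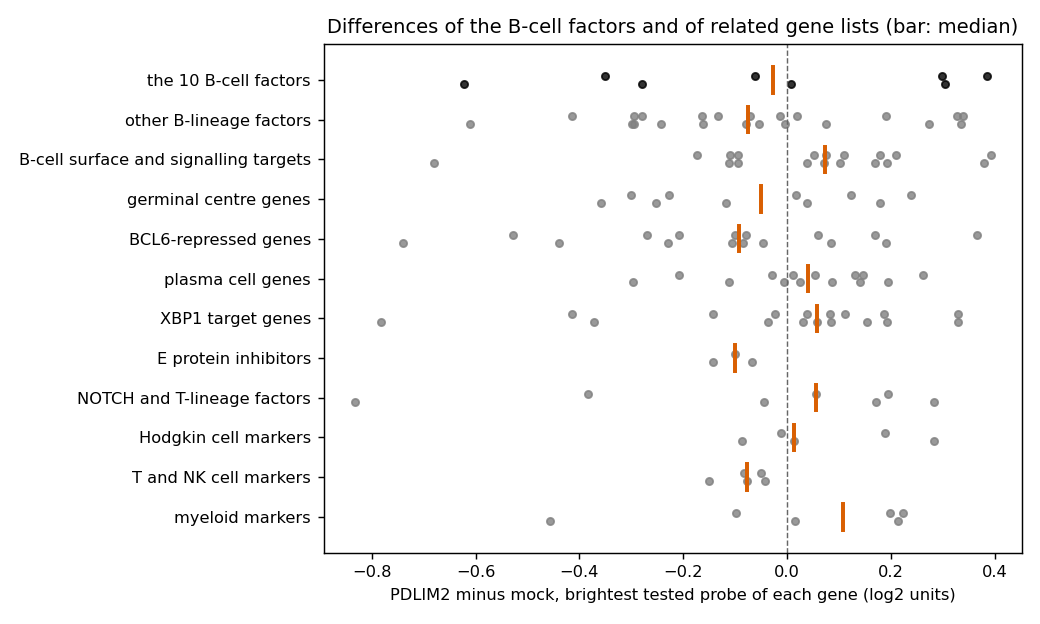
PDLIM2 minus mock in log2 units for the brightest probe of each tested gene (points), for the 10 B-cell factors of which 8 were tested and for 11 related lists; orange bars mark medians. The medians lie between -0.10 and 0.11, and BCL6 at -0.62 is the lowest of the factors.

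The DNA before the gene starts is shown for BCL6 and EBF1, the 2 factors with a tested probe whose groups did not overlap. It is also shown for PAX5, which was dim, and for PRDM1, the counterpart of BCL6. The sequences are the 250 bases before the start in RefSeq (GRCh38.p14), 5′ to 3′ on the strand of the gene, and where RefSeq has 2 starts the one farther upstream was taken. Capitals mark matches, on either strand, to TTCNNNGAA (the palindrome bound by STAT factors and BCL6), CAGCTG and CAGGTG (E-boxes of the kind TCF3 binds), GAGGAA (the core of the site of PU.1 and SPIB) and ATGCAAAT (the octamer); no match overlapped another.
BCL6 (chr3:187745469-187745718, minus strand): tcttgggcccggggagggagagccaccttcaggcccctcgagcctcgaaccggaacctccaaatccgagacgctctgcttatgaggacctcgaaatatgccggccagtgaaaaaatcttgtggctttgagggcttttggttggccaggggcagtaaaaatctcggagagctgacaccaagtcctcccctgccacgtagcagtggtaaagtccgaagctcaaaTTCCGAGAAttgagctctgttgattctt
EBF1 (chr5:159097957-159098206, minus strand): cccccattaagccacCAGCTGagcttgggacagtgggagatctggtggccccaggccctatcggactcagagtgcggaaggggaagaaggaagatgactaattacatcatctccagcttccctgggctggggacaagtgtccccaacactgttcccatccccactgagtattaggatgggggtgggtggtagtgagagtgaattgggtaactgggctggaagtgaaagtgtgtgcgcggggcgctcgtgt
PAX5 (chr9:37034269-37034518, minus strand): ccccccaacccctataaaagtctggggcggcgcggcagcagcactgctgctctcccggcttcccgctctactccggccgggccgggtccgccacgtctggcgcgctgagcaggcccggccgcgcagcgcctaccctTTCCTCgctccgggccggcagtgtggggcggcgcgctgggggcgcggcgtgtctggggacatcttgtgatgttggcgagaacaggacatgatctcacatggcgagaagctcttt
PRDM1 (chr6:106086086-106086335, plus strand): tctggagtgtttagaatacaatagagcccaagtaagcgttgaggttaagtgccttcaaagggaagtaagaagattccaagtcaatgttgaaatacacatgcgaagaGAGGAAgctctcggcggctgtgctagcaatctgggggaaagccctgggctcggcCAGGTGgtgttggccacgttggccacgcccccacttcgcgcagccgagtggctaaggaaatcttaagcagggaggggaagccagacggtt

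The match before BCL6 was TTCCGAGAA, starting 28 bases before the gene start, and the window with the first 50 transcribed bases added held 4 matches to TTCNNNGAA. How many other windows of that longer kind hold several matches was not counted. No other window of the 10 genes held that motif, and 6.57% of 35116 RefSeq windows of 250 bases held at least 1 match. EBF1 had CAGCTG 235 bases before its start (14.0% of all windows), PRDM1 had CAGGTG 90 bases (17.5%) and GAGGAA 144 bases before its start, and PAX5 had GAGGAA in reverse 114 bases before its start (23.6%). The octamer was in none of the 12 windows of these genes and in 1.63% of all. Windows were found for 9 of the 10 genes, not for POU2AF1. The CG dinucleotide occurred 12 times before BCL6, 6 times before EBF1, 27 times before PAX5 and 11 times before PRDM1, with a median of 11 over all windows. These matches describe the letters of the windows; binding was not measured.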

How the data were processed

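Per the labels, biotin-labelled polyadenylated RNA from sorted L591 cells was hybridised to Illumina bead arrays. The deposited table holds log2 values, 1 for each probe on each array; how they were scanned, background-corrected and normalized is not given in the sources used here. Quartiles agreed within 0.05 log2 units, so values were used as deposited. Of 47231 probes, 47230 had a value on all 4 arrays. Symbols came from GEO's platform annotation, updated by gene identifier through RefSeq (GRCh38.p14): 30112 probes had 1 symbol, 8 several and 17110 none listed. None of the 16 member probes changed symbol.

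Groups and array numbers came from the sample titles. PDLIM2 minus mock was fitted with lmFit and eBayes (limma 3.58.1, R 4.3.3) on the 23615 probes whose mean exceeded the median of all probes, with two-sided p-values adjusted by Benjamini-Hochberg and a threshold of 0.05. Residual degrees of freedom were 2, and the prior added 5.10. The fit was also run on simulated arrays, with independent noise drawn from the fitted prior and known changes added. They held no array-number effect and no outlying array, so they do not show how the fit behaves on these arrays. The number of arrays limits the precision.

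The members and lists were chosen with earlier results of these data known. Named genes are all member probes, PDLIM2 and, per list, the 3 genes of smallest unadjusted p. CD79A, CD79B, MS4A1, BLK, TNFRSF8, CCL17, the CD3 genes, CD2, CD14, CSF1R, SDC1, TNFRSF17, MZB1, JCHAIN and ZAP70 were added as markers or to complete counts. Alternatives were other filters, quantile normalization, median centring, an offset of 50, limma-trend, a robust prior, a replicate block, each array left out, other background limits and mean over probes.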

Additional observations from a re-analysis of the deposited data

How the results depend on the processing

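Among the B-cell factors, 0 probes were called higher and 0 lower in every fit run. BCL6 kept its direction throughout, lying in -0.72 to -0.53 when 1 array was left out and in -0.62 to -0.61 in the other fits. Of the 16 probes, 6 kept their sign in all fits, and 10 changed it with an array left out, when the lone array of a group is taken to have the spread of the other group. Those ranges were PAX5 -0.12 to 0.052, POU2AF1 -0.084 to 0.28, POU2F2 -0.019 to 0.63, BACH2 -0.033 to 0.093 (ILMN_1659943) and -0.21 to 0.22 (ILMN_1670695), PRDM1 -0.39 to 0.27 (ILMN_1655077), -0.00018 to 0.44 (ILMN_2294784), -0.77 to 0.14 (ILMN_2298159) and -0.26 to 0.41 (ILMN_2414165), and XBP1 -0.73 to 0.17 (ILMN_1809433). The others ranged over -0.57 to -0.13 (EBF1), 0.12 to 0.48 (SPIB), 0.028 to 0.74 (TCF3), 0.21 to 0.24 (BACH2 ILMN_2058468) and -0.44 to -0.014 (XBP1 ILMN_2365465). With an array left out, 1 to 6 of the tested factor probes had an unadjusted p under 0.05, beside 1.27% to 11.6% of all tested probes, and 0 to 163 of all tested probes were called higher and 0 to 647 lower. The median difference of the factors then ranged from -0.16 to 0.17; it was 0.018 with no filter and -0.23 with the filter at the 75th percentile. In the labels, same-numbered arrays share only their number. As a hint from the data and not the design, same-numbered arrays had the same highest value (14.98 for number 1, 15.07 for number 2), and their deviations from the group means correlated over probes (r = 0.476, probes not being independent). The replicate block called 0 probes higher and 1 lower and no factor. With the highest tissue-restricted probe (MBP) as limit, 0 factor probes passed in the mock arrays (3.87% of all probes), against 7 at the 95th and the 90th percentile (15.7% and 26.5% of all) and 10 without the 3 brightest genes of that list (33.8% of all), an alternative added after seeing the data. The cause was not tested. Detection p-values were not used, so how far the dim PAX5, POU2AF1 and BACH2 probes lie above background is unknown.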
